A study of Mus musculus with 12 samples.

Results

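A group of 6 genes that are best known from epithelia was followed in primary mouse embryonic fibroblasts: the simple keratins Krt8, Krt18 and Krt19, the adhesion gene Epcam, and the cornified envelope genes Lce1f and Crct1. They were chosen by their signals in these same arrays, which differed between the fibroblast lines, and they are 6 of the 18193 genes that had a probe set with 1 gene symbol on the array. The array annotation gave them 10 probe sets. Of these, 5 reached a mean signal of 100 over the 12 arrays and entered the tests: Krt19 (1417156_at, mean 3118), Crct1 (1453092_at, mean 563), Lce1f (1420550_at, mean 379), Krt18 (1448169_at, mean 214) and Epcam (1447899_x_at, mean 142). The other 5 were low, and they include all 3 probe sets of Krt8. Epcam at 142.2 lay just inside the limit of 100, and Krt8 at 71.3 (1420647_a_at) lay just outside it.

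RNA came from 6 fibroblast lines made from e14.5 embryos, each measured once after 6 h in hypoxia (0.1% O2) and once after 6 h in normoxia (21% O2), on 1 Affymetrix Mouse430_2 array per culture. The triCH1 lines keep the histone acetyltransferases CBP (gene Crebbp) and p300 (gene Ep300) only in forms that lack the CH1 domain, a protein-binding domain that contacts HIF-1α. In triCH1flox1 the genotype was CH1/flox at CBP and CH1/CH1 at p300, and in triCH1flox2_1 and triCH1flox2_2 it was CH1/CH1 at CBP and CH1/flox at p300. The control lines carried a floxed allele and no CH1 deletion: flox1 was +/flox at CBP, and flox2_1 and flox2_2 were +/flox at p300. All 6 lines, controls included, received an adenovirus with Cre recombinase at passage 3 and were then expanded, so the controls had also been treated to delete 1 allele. There were 4 groups of 3 arrays: triCH1 hypoxia, control hypoxia, triCH1 normoxia and control normoxia. The sources used here do not state whether the lines of a type came from different embryos, but genotype and sex show that they did. Within a type, the flox1 line differed from the flox2 lines in genotype, and the flox2 lines differed from each other in sex. Xist averaged 39.4 in triCH1flox2_1 and 1153 in triCH1flox2_2, and 1276 in flox2_1 and 31.6 in flox2_2. In the main fit the arrays of a line were not paired, so differences in level between the lines entered the error of each oxygen contrast. Where lines were fitted as paired blocks, the p-values rest instead on how the change within a line varied from line to line.

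Keratins are the intermediate filament proteins of epithelial cells, and a filament needs a type I and a type II keratin as partners. Krt8 (type II) and Krt18 (type I) are the partners found in simple, single-layered epithelia, and Krt19 is a small type I keratin of simple epithelia and ducts. The cornified envelope is the cross-linked protein shell of dead cells at the skin surface. Late cornified envelope proteins such as Lce1f, and the cysteine-rich protein Crct1, are encoded together with many other envelope genes in the epidermal differentiation complex. Fibroblasts are mesenchymal cells, whose main intermediate filament protein is vimentin rather than keratin.

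Krt8 and Krt18 are neighbours on chromosome 15 in the RefSeq annotation of GRCm38.p6, with 0 protein-coding genes between them. Lce1f and Crct1 both lie on chromosome 3, with 14 protein-coding genes between them, of which 12 are other Lce genes. Krt19 is on chromosome 11 and Epcam on chromosome 17. RefSeq promoter windows, from 250 bases before to 50 bases after the annotated start, were matched by symbol for 3 of the 6 genes (Krt8, Krt18 and Epcam). The windows of the neighbouring partners Krt8 and Krt18 are shown because these genes are usually made as a pair, and because the signal of Krt18 separated the lines while Krt8 was low. They lie at chr15:102004293-102004592 on the minus strand for Krt8 and at chr15:102027966-102028265 on the plus strand for Krt18.
Krt8: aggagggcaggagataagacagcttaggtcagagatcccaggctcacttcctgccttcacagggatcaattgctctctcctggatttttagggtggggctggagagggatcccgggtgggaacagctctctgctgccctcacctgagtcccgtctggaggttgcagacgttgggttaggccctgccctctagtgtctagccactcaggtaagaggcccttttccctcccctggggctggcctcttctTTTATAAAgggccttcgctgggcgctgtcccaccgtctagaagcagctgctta
Krt18: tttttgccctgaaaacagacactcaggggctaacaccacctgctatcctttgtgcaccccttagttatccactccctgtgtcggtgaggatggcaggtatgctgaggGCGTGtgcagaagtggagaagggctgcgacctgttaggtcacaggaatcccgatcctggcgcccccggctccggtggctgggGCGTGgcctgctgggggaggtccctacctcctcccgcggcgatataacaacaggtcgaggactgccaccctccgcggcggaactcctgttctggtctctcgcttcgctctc
Capitals mark matches, on either strand, to 4 short motifs: TATAAA (the TATA box), ACGTG and GCGTG (core letters that hypoxia-inducible factors and related factors can bind) and TGANTCA (the AP-1 site). Krt8 held TATAAA overlapping its own reverse complement TTTATA, the matches starting 1 and 3 bases before the annotated start. Krt18 held GCGTG at 143 and 61 bases before the start. In Epcam, ACGTG matched on both strands of 1 overlapping site, at 30 and 31 bases after the start. Among 32851 promoter windows of the same length, 13.6% held TATAAA, 19.6% ACGTG, 32.4% GCGTG and 7.81% TGANTCA.

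The arrays behaved alike as a whole. The authors had scaled each array to a common target, their scale factors lay between 2.57 and 4.28, and array medians lay between 57.2 and 76.1. The probe sets for the targeted genes do not show the CH1 deletion: Crebbp (1435224_at) averaged between 755 and 1804 per line and Ep300 (1434765_at) between 237 and 655, with triCH1 and control lines overlapping in both. All 12 genes of a fibroblast list had a mean over the arrays of at least 100, though Dcn and Pdgfra were under it on some arrays, and Vim, encoding vimentin, gave between 35594 and 50587. Of the epithelial marker lists, 6 of 25 simple epithelial genes and 2 of 13 keratinocyte genes had a mean of at least 100, among them Krt7 (mean 886) and Sfn (mean 603), while the other 19 and 11 were under it. Among those under it, the highest of 12 arrays was 98.1 for Cdh1 (E-cadherin), 104 for Krt5, 56.5 for Krt14 and 74.6 for Trp63, these 4 being named after their values were seen. Others under it peaked higher, at 168 for Krt20, 139.5 for Lgals7, 138 for Cldn4, 137 for Elf3 and 121 for Grhl2.

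Krt19 rose in hypoxia in both line types, and it was the only one of the 5 tested members called in any oxygen contrast. In hypoxia its signal was 3643 in triCH1flox1, 3019.7 in triCH1flox2_1 and 3194 in triCH1flox2_2, against 989.9, 1542 and 1588 in normoxia in the same order of lines. In the control lines it was 7281 in flox1, 5573 in flox2_1 and 6075 in flox2_2 in hypoxia, against 1729, 968 and 1810.0 in normoxia. All 6 hypoxia arrays lay above all 6 normoxia arrays, a pattern found in 1.43% of the 18903 tested probe sets, and Krt19 was higher in hypoxia in 6 of 6 lines, as were 5.14%. The ratio of hypoxia to normoxia was 3.68 in triCH1flox1, 1.96 in triCH1flox2_1 and 2.01 in triCH1flox2_2. In the control lines that ratio was 4.21 in flox1, 5.76 in flox2_1 and 3.36 in flox2_2.

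In the triCH1 lines Krt19 averaged 3285 ± 322 in hypoxia and 1373 ± 333 in normoxia (SD, n = 3 arrays each). The change was 1.27 ± 0.24 (SE) on the scale of log2(signal + 20), a 2.42-fold rise, with an adjusted p of 0.0227 in limma's moderated test. Of the 5 tested members 1 was called, Krt19, and of all tested probe sets 0.635% were called in either direction and 0.63% as higher. In the control lines Krt19 averaged 6310.0 ± 878 in hypoxia and 1502 ± 465 in normoxia (SD, n = 3 arrays each). The log2 change was 2.10 ± 0.24, a 4.29-fold rise, with limma's adjusted p at 0.000191. Of all tested probe sets 0.831% were called in that contrast in either direction and 0.799% as higher. Over all 6 lines the mean change was 1.69 ± 0.17 with an adjusted p of 3.09e-05 in limma, where 1.75% of tested probe sets were called in either direction and 1.42% as higher. Of the tested probe sets, 74 had a larger mean change than Krt19.

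The call in the triCH1 lines was the less secure of the 2. It was lost without a variance trend (limma adjusted p 0.0614) and when single triCH1 cultures were left out. Without the hypoxia array of triCH1flox2_1, triCH1flox1 or triCH1flox2_2 limma's adjusted p was 0.0656, 0.122 and 0.087, and without the normoxia array of triCH1flox1 it was 0.093. Without the whole line triCH1flox2_1, triCH1flox1 or triCH1flox2_2 it was 0.104, 0.309 and 0.144. The rise stayed between 0.98 and 1.43 on the log2 scale over all 18 omissions of an array or a line.

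The triCH1 lines also lay below the control lines in Krt19 after hypoxia: the 3 triCH1 hypoxia arrays (3019.7 to 3643) were all below the 3 control hypoxia arrays (5573 to 7281), as in 6.05% of tested probe sets. In normoxia the line types overlapped, at 989.9 to 1588 in triCH1 lines and 968 to 1810.0 in control lines. The response in triCH1 lines minus the response in control lines was −0.83 ± 0.34 (SE) on the log2 scale, with an unadjusted p of 0.0285 and an adjusted p of 1 in limma. The difference therefore did not pass the test across all probe sets. Krt19 was chosen by line differences in these same arrays, which enter this comparison, so its unadjusted p is a description only. limma called 0 probe sets in this comparison, 0% of those tested, and 131 had an unadjusted p under 0.05. With lines as a paired replicate block the difference was the same size with a smaller error, −0.83 ± 0.27, and its adjusted p was again 1 in limma, with 302 unadjusted p-values under 0.05 and 0 calls.

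**Figure D1:**
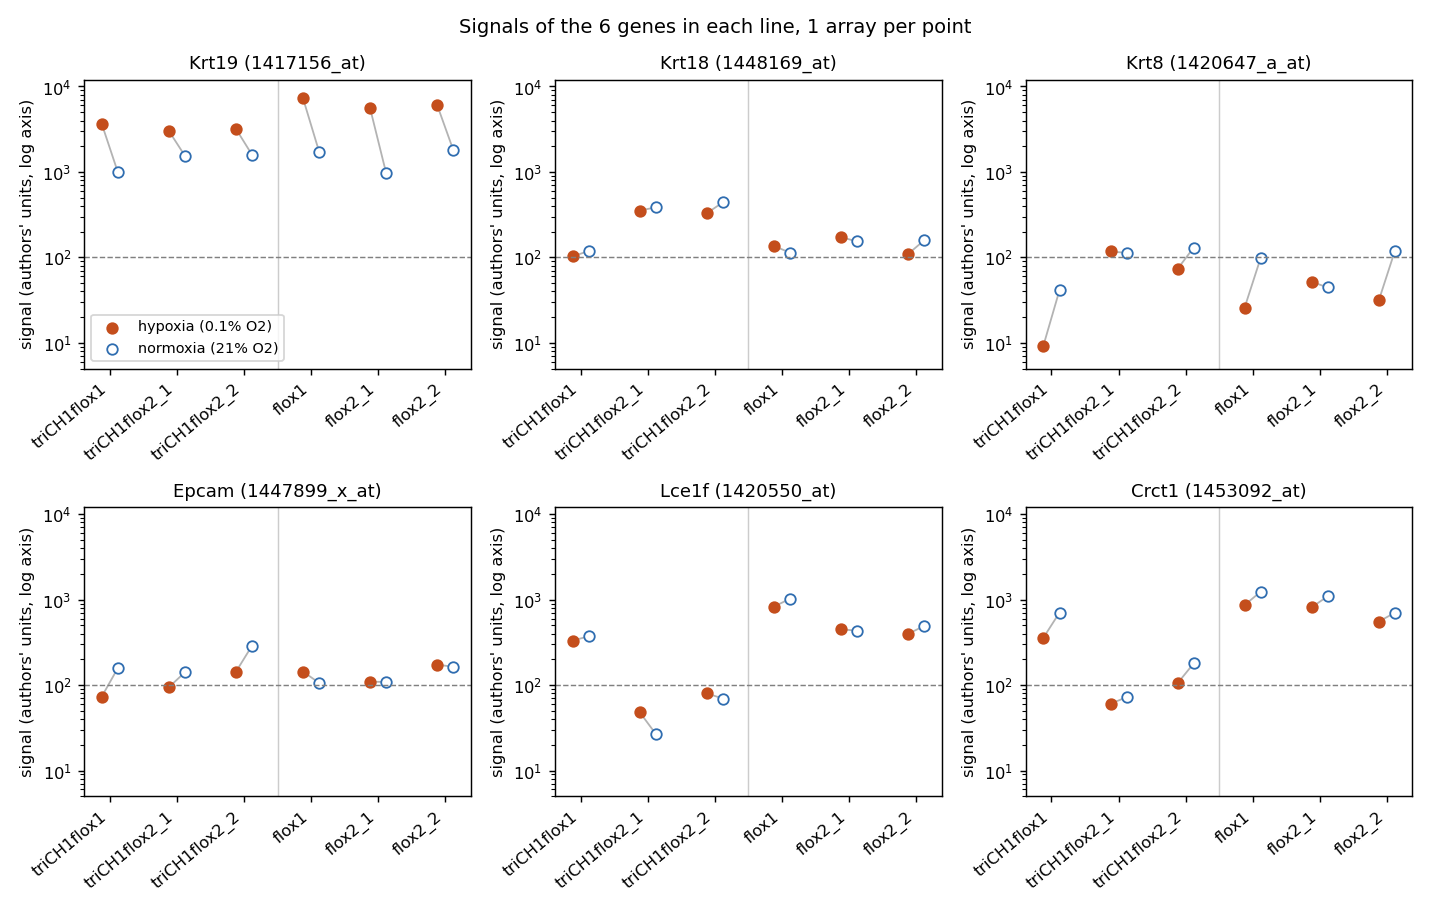
Signal of each gene's highest probe set in 6 lines on a log axis, triCH1 lines left of control lines and hypoxia (filled) left of normoxia (open), 1 array per point and a dashed line at a signal of 100. Krt19 is higher in hypoxia in every line, Krt18 is highest in triCH1flox2_1 and triCH1flox2_2, and Lce1f and Crct1 are lowest there.

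Krt18 set the 2 lines triCH1flox2_1 and triCH1flox2_2 apart from the other 4. Its signal was 353 and 385 in triCH1flox2_1 and 328 and 441 in triCH1flox2_2, hypoxia before normoxia. In triCH1flox1 it was 103 in hypoxia and 119 in normoxia, which is within or below the control lines. The control lines gave 136, 172 and 109 in hypoxia (flox1, flox2_1 and flox2_2) and 114, 154 and 158 in normoxia. All 4 arrays of the triCH1flox2 lines were above the other 8, as were those of 4.08% of tested probe sets, and since the gene was picked for line differences no test is attached. Their mean was 377, against 133 in the other 4 lines, a ratio of 2.83, while triCH1flox1 stood at 0.788 of the control mean. The line means of Krt18 spanned 1.62 on the log2 scale, a span that 4.72% of tested probe sets equalled or exceeded.

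No change of Krt18 with oxygen passed the test. It averaged 261 ± 138 in hypoxia and 315 ± 172 in normoxia in the triCH1 lines (SD, n = 3), a log2 change of −0.23 ± 0.46 with a limma adjusted p of 0.98. In the control lines it averaged 139 ± 31.6 in hypoxia and 142 ± 24.6 in normoxia (SD, n = 3), a log2 change of −0.03 ± 0.46 with a limma adjusted p of 1. It was lower in hypoxia in 4 lines and higher in 2. With lines as paired blocks both changes kept their size with an error of 0.24, and limma's adjusted p was 0.768 and 0.991.

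Krt8, the partner of Krt18, stayed low on every probe set. Its brightest, 1420647_a_at, gave 9.3, 117 and 73.4 in hypoxia in triCH1flox1, triCH1flox2_1 and triCH1flox2_2, against 41.4, 113 and 130.1 in normoxia. The control lines flox1, flox2_1 and flox2_2 gave 25.9, 51.7 and 31.3 in hypoxia and 99.1, 44.5 and 119 in normoxia. The triCH1flox2 lines averaged 108 and the other 4 lines 52.8, but the arrays overlapped. The other probe sets gave 4.8 to 92.9 (1423691_x_at) and 3.0 to 41.6 (1435989_x_at). At such signals the order of lines cannot be read with confidence, and no detection calls were used here. When low probe sets were tested as well, the brightest changed by −0.73 ± 0.39 over the 6 lines on the log2 scale, with a limma adjusted p of 0.732.

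Lce1f showed the widest spread between lines among the 5 tested members. In hypoxia it was 331 in triCH1flox1, 48.2 in triCH1flox2_1 and 80.0 in triCH1flox2_2, and in normoxia it was 373, 26.8 and 69.6. The control lines gave 828 (flox1), 449.9 (flox2_1) and 396 (flox2_2) in hypoxia, and 1023, 433 and 492 in normoxia. The triCH1flox2 arrays were all below the other 8, as in 3.03% of tested probe sets, and all 6 triCH1 arrays were below all 6 control arrays, as in 1.03%. The triCH1flox2 lines averaged 56.2 and the other 4 lines 541. All 4 triCH1flox2 values were under 100, so Lce1f passed the filter through the other lines, and no ratio is given because the low side may be background. The line triCH1flox1 stood at 0.583 of the control mean. The line means spanned 4.06 on the log2 scale, a size that rests on these faint values, and 0.116% of tested probe sets spanned as much. The second probe set of Lce1f (1449902_at) was low throughout, at 1.6 to 78.1. It averaged 18.4 in the triCH1flox2 lines and 45.6 in the other 4, the same order, but its arrays overlapped and are too faint to decide.

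Crct1, from the same gene complex, followed almost the same order. Its signal was 359 in triCH1flox1, 60.6 in triCH1flox2_1 and 105 in triCH1flox2_2 in hypoxia, and 706, 72.0 and 179 in normoxia. In the control lines it was 864 (flox1), 815 (flox2_1) and 554 (flox2_2) in hypoxia and 1242, 1097 and 703 in normoxia. The 4 triCH1flox2 arrays were again below the other 8, with line means of 104 against 792. Both arrays of triCH1flox2_1 were under 100, so here too no ratio is given. The normoxia array of triCH1flox1 reached into the control range, so triCH1 and control arrays overlapped. The line means of Crct1 spanned 3.62 on the log2 scale, with the same limit, and 0.254% of tested probe sets spanned as much. Krt19 and Epcam differed less between lines. Krt19 spanned 0.89, which 24.7% of tested probe sets equalled or exceeded, and Epcam spanned 0.80, with 31.6%. The median span of all tested probe sets was 0.61.

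As a level averaged over both oxygen conditions, triCH1 minus control lines was −2.22 for Lce1f, −2.18 for Crct1, 0.78 for Krt18, −0.52 for Krt19 and 0.06 for Epcam on the log2 scale. The median size of this difference over all tested probe sets was 0.16. These differences helped to choose the genes and are given as a description. They join unlike lines: for Lce1f the difference was −3.00 without triCH1flox1 and −1.64 without triCH1flox2_1. For Crct1 it was −2.90 without triCH1flox1 and −1.59 without triCH1flox2_1, and for Krt18 it was 1.31 without triCH1flox1. Without triCH1flox2_1 or triCH1flox2_2 the Krt18 difference was 0.53 and 0.50. In RNA from whole cultures, fewer cells that make a transcript and less of it per cell cannot be told apart.

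Among the triCH1 lines the floxed gene was CBP in triCH1flox1 and p300 in both triCH1flox2 lines, so the line and the floxed gene cannot be told apart there. The sex of the embryo differed between the triCH1flox2 lines: Xist averaged 39.4 in triCH1flox2_1 and 1153 in triCH1flox2_2, and the Y-linked Eif2s3y averaged 1158 and 15.8, both genes being looked at after the values were seen. The part of sex in the signals of Lce1f and Crct1 was not tested, with 1 triCH1flox2 line of each kind.

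**Figure D2:**
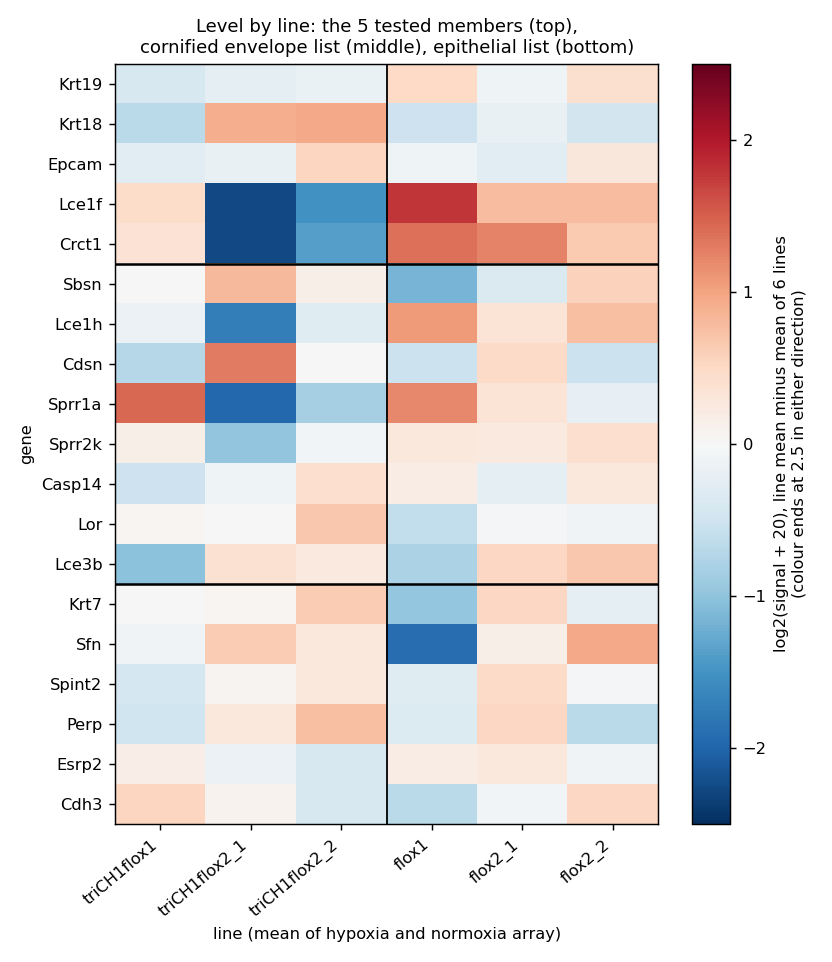
Line means of log2(signal + 20) minus the mean of the 6 lines, for the 5 tested members (top), 8 cornified envelope genes (middle) and 6 epithelial genes (bottom), triCH1 lines left of control lines. Lce1f and Crct1 are low in triCH1flox2_1 and triCH1flox2_2, and Sprr1a is the only gene of the middle block with all 4 arrays of those lines below the other 8.

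Lce1f and Crct1 did not change with oxygen past the test. Lce1f averaged 153 ± 155 in hypoxia and 156 ± 189 in normoxia in the triCH1 lines (SD, n = 3), and 558 ± 235 in hypoxia and 649 ± 325 in normoxia in the control lines (SD, n = 3). Its log2 changes were 0.18 ± 0.70 and −0.18 ± 0.70, with limma adjusted p of 0.994 and 1, and it was higher in hypoxia in 3 lines and lower in 3. With lines as paired blocks these changes kept their size with an error of 0.22, and limma's adjusted p was 0.807 and 0.886. Crct1 averaged 175 ± 161 in hypoxia and 319 ± 340 in normoxia in the triCH1 lines (SD, n = 3), and 744 ± 166 in hypoxia and 1014 ± 279 in normoxia in the control lines (SD, n = 3).

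The signal of Crct1 was lower in hypoxia in 6 of 6 lines, as in 7.23% of tested probe sets. Its mean log2 change was −0.51 ± 0.45 with a limma adjusted p of 0.755, and in that fit the large spread between lines enters the error. With each line as its own paired block the change was −0.51 ± 0.14, with an unadjusted p of 0.00223 and an adjusted p of 0.0571 in limma, which is short of the threshold of 0.05. That fit called 3.67% of tested probe sets in either direction in the mean response and 1.26% as lower. In hypoxia over normoxia, the ratio of Crct1 lay between 0.508 in triCH1flox1 and 0.842 in triCH1flox2_1.

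Epcam, which encodes a homophilic adhesion protein of epithelial cell membranes, was faint and passed no oxygen test. In hypoxia it was 73.4 in triCH1flox1, 94.4 in triCH1flox2_1 and 143 in triCH1flox2_2, against 159, 142 and 289 in normoxia. In the control lines it was 144 (flox1), 109.7 (flox2_1) and 174 (flox2_2) in hypoxia, against 106, 109 and 164 in normoxia. It was lower in hypoxia in all 3 triCH1 lines and higher in all 3 control lines, though in flox2_1 and flox2_2 the ratio was only 1.01 and 1.06. The log2 change was −0.78 ± 0.32 in the triCH1 lines (unadjusted p 0.0299, limma adjusted p 0.718) and 0.16 ± 0.32 in the control lines (limma adjusted p 1). With lines as paired blocks both changes kept their size with an error of 0.27. In that fit limma's unadjusted p was 0.0108 in the triCH1 lines, and its adjusted p was 0.287 there and 0.939 in the control lines. The second Epcam probe set (1416579_a_at, signals of 5.4 to 70.5) did not share this pattern, since it was higher in hypoxia in 1 of the triCH1 lines and lower in 1 of the control lines.

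**Figure D3:**
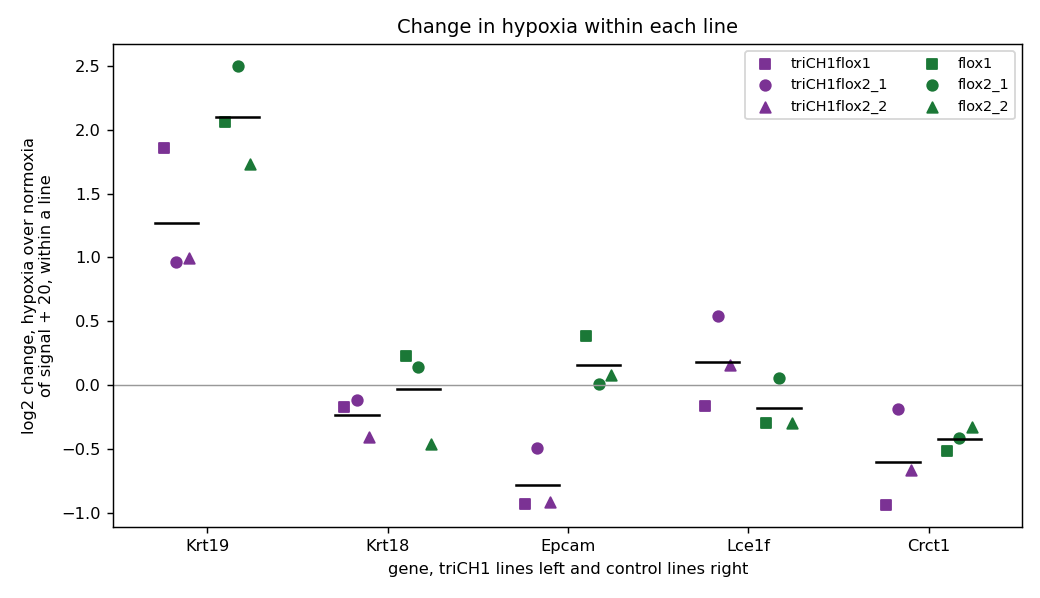
Change in hypoxia relative to normoxia within each line, as the log2 ratio of signal + 20, for the 5 tested members, triCH1 lines left and control lines right, with 1 symbol per line and a bar at the mean of 3 lines. Krt19 lies above 0 in all 6 lines, Crct1 lies below 0 in all 6, and Epcam lies below 0 in the 3 triCH1 lines only.

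Across the 12 arrays, Lce1f and Crct1 varied together, with a Pearson r of 0.96 for log2(signal + 20). Krt18 ran against both, at −0.89 with Lce1f and −0.83 with Crct1. These are descriptions: the arrays come in pairs from 6 lines, and 4 of them are the triCH1flox2 arrays that separate all 3 genes. Over the 8 arrays without those lines r was 0.70 for Lce1f and Crct1, 0.05 for Krt18 and Lce1f and 0.46 for Krt18 and Crct1. For Krt19 and Lce1f r was 0.19 over all 12 arrays. Within the 6 hypoxia arrays Krt19 and Lce1f gave r 0.90, and within the 6 normoxia arrays −0.11.

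**Figure D4:**
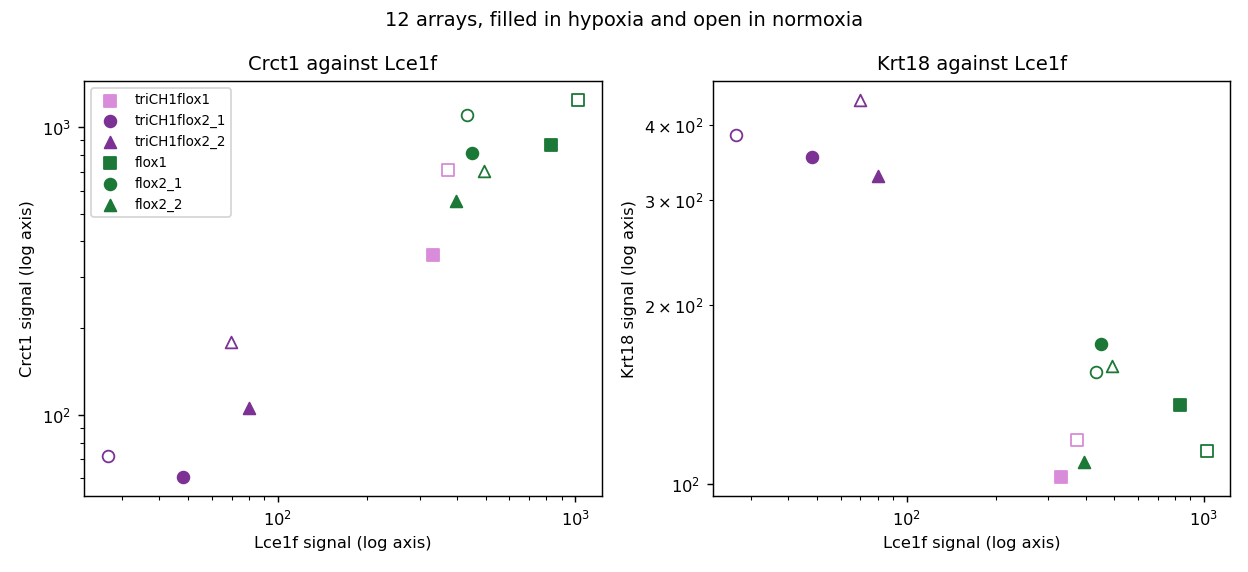
Crct1 against Lce1f (left) and Krt18 against Lce1f (right) on log axes, 12 arrays with 1 symbol per line, filled in hypoxia and open in normoxia. The 4 arrays of triCH1flox2_1 and triCH1flox2_2 stand apart in both panels, and without them r of Krt18 and Lce1f is 0.05 over 8 arrays.

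The genes most like each member over the 12 arrays were ranked by Pearson r, among tested probe sets with 1 symbol. For Lce1f they were Rgs16, a regulator of G protein signalling (r 0.99), Dpysl3 on both of its tested probe sets (0.99 and 0.98), Grb14, an adaptor of the insulin receptor (0.98), and Tes, a focal adhesion protein (0.98). For Crct1 they were Rgs16 again on 2 probe sets (0.97 and 0.97), Specc1 (0.97), Ckb, the brain form of creatine kinase (0.96), and Mmd (0.96). Rgs16 (1451452_a_at) averaged 1221 in triCH1flox1, 199 in triCH1flox2_1 and 317 in triCH1flox2_2, against 2782, 1424 and 1556 in flox1, flox2_1 and flox2_2. It shared the low triCH1flox2 lines and the high flox1 line of Lce1f.

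For Krt18 the closest were Idh2, a mitochondrial isocitrate dehydrogenase (r 0.96), Tbx4, a transcription factor of the hindlimb (0.95), Fbxo5, an inhibitor of the anaphase-promoting complex (0.95), Elovl7, a fatty acid elongase (0.95), and Rrp1b (0.94). Fbxo5 averaged 474 in triCH1flox1, 1500.4 in triCH1flox2_1 and 1504 in triCH1flox2_2, against 510.3, 656 and 599 in flox1, flox2_1 and flox2_2. None of the 5 genes is a keratin or an epithelial marker of the lists used here.

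Krt19 ran with genes that rose in hypoxia. The closest were Hilpda, a lipid droplet protein (r 0.95), Mxi1, an antagonist of Myc (0.95), Stc2, a secreted stanniocalcin (0.95), Ndrg1 (0.95) and Reep1, a shaper of the endoplasmic reticulum (0.95). Each rose in the mean response of the 6 lines, by 2.38 ± 0.11 for Hilpda (limma adjusted p 2.39e-08), 3.15 ± 0.21 for Stc2 (5.53e-07) and 1.49 ± 0.15 for Reep1 (3.81e-05) on the log2 scale. The mean change of Krt19, 1.69, lay within that range. These 5 genes were picked by their r with Krt19, whose signal separated hypoxia from normoxia on these same arrays. Their rise therefore follows from the choice, and their adjusted p-values are descriptions only. For Epcam the closest were Pear1 (r 0.85), Scmh1 (0.84), Casp14 (0.82), Mtor (0.82) and Peg12 (0.82), all weaker than the leading genes of the other 4 members. None of these 5 was called in the mean response, where limma's adjusted p lay between 0.556 and 0.777.

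Other genes of the same pathways were read from the same arrays. Of 38 cornified envelope genes on the array, 8 reached a mean of 100, and limma called 0 of these 8 in any oxygen contrast without line blocks, with 0 at an unadjusted p under 0.05. Over all tested probe sets, the share with an unadjusted p under 0.05 was 11.3% in the mean response, 6.25% in the triCH1 lines, 5.98% in the control lines and 0.693% in the difference. The 8 genes' median mean response was −0.27 on the log2 scale, against −0.03 over all tested probe sets. The highest were Sbsn (suprabasin), Lce1h, Cdsn (corneodesmosin, which joins cornified cells) and Sprr1a (a small proline-rich precursor of the envelope). Between lines, 1 of the 8 had its 4 triCH1flox2 arrays below the other 8 arrays, as had 3.03% of all tested probe sets, Lce1f and Crct1 among them. The 1 gene of the 8 was Sprr1a, at 5.8 and 98.9 in triCH1flox2_1 and 83.5 and 122 in triCH1flox2_2, hypoxia before normoxia. In triCH1flox1 it was 433 and 742, and the control lines gave 134 to 365 in hypoxia and 208 to 623 in normoxia. Sprr1a was lower in hypoxia in 6 of 6 lines, as were 7.23% of tested probe sets. With lines as paired blocks its mean change of −0.86 ± 0.21 passed the test (limma adjusted p 0.0403), where 1.26% of tested probe sets were called as lower. Without blocks the change did not pass (−0.86 ± 0.62, limma adjusted p 0.676). The largest fall was −2.20 in triCH1flox2_1, where the hypoxia signal was only 5.8, and the other lines gave −0.75 to −0.45. Sprr1a averaged 77.5 in the triCH1flox2 lines, so it passed the filter through the other lines.

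Lce1h, which lies between Lce1f and Crct1 in the complex, gave 123 and 199 in triCH1flox2_1 and 479.8 and 428 in triCH1flox2_2, hypoxia before normoxia. The other lines gave 355 to 1601, so it overlapped. Late cornified envelope genes are close copies of each other, and their probe sets can pick up more than 1 of them. Sbsn went another way, with 1524 and 1766 in triCH1flox2_1 and 916 and 1137 in triCH1flox2_2, against 341 to 1537 in the other lines. Of 11 S100 genes of the complex 6 were tested and 5 had a mean under 100. The highest, S100a6, a calcium-binding protein, gave 26432 to 38973 over all 12 arrays. With and without line blocks limma called 0 of these 6, and in the mean response 2 of 6 (S100a6 and S100a16) had an unadjusted p under 0.05, against 11.3% of all tested probe sets. The median response of the 6 tested S100 genes was 0.01 on the log2 scale. S100a6 was higher in hypoxia in 6 of 6 lines, as were 5.14% of tested probe sets. S100a16 was lower in 6 of 6, as were 7.23%.

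Among 25 simple epithelial genes, members not counted, 6 were tested: Krt7 (a type II simple keratin), Sfn (stratifin), Spint2 (an inhibitor of serine proteases), Perp (a desmosome-linked protein), Esrp2 and Cdh3. None of these 6 was called in any oxygen contrast by limma, 0 had an unadjusted p under 0.05, and for none did the triCH1flox2 arrays stand apart. Over all tested probe sets 4.08% had those arrays above all others and 3.03% below. For the 6 epithelial genes, limits of a small list apply. The median mean response of these 6 genes was −0.20 on the log2 scale. Krt7 gave 780.3 to 1353 in the triCH1flox2 lines, 789 to 871 in triCH1flox1 and 405 to 1398 in the control lines. The list's summed signal was 2578 to 3693 in triCH1 hypoxia, 2223 to 3826 in control hypoxia, 3115 to 4149 in triCH1 normoxia and 2250.0 to 3763 in control normoxia, so the groups overlapped. Of 13 keratinocyte genes 2 were tested, Krt10 and Krt6a, with 0 called by limma, 0 at an unadjusted p under 0.05 and a median of −0.12. That list summed to 550.0 to 807 in triCH1 arrays and 467 to 838 in control arrays.

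Markers of other cells gave the following. Of 10 mesothelial genes 3 were tested, with 0 called by limma, 0 at an unadjusted p under 0.05 and a median mean response of −0.22 on the log2 scale. Msln (mesothelin) gave 275 to 773 in the triCH1 lines and 36.2 to 449 in the control lines, beside Cldn15 and Upk1b. The mesothelial sums were 574 to 1256 in triCH1 arrays and 373 to 973 in control arrays. None of 7 trophoblast genes had a mean over the arrays of at least 100. The highest mean was 53.9, for Ascl2, whose hypoxia signals were 110.4 in triCH1flox1, 146.4 in flox1, 104.9 in flox2_1 and 107.1 in flox2_2. In normoxia those lines gave at most 16.5. In triCH1flox2_1 and triCH1flox2_2 Ascl2 gave 16.3 and 29.4 in hypoxia, and 3.3 and 69.2 in normoxia. Ascl2 was named after its values were seen and did not enter the main tests. Of the 12 fibroblast genes limma called 0 without blocks, 0 had an unadjusted p under 0.05, and their median was −0.06. For these 12, the triCH1flox2 arrays lay above the other 8 in 3 cases (Lum, Dcn and Pdgfra) and below in 1 (Thy1), these being named after their values were seen, and overlapped in 8, Vim, Col1a1, Col1a2 and Fn1 included. Over all tested probe sets 4.08% lay above and 3.03% below. Thy1 was not low in the triCH1flox2 lines alone. All 6 triCH1 arrays, triCH1flox1 included at 3590.2 and 4001.2, lay below all 6 control arrays (4623.9 to 7558.3), as in 1.03% of tested probe sets. Dcn averaged 501 in the triCH1flox2 lines and 92.8 in the other 4 lines, so it passed the filter only through the lines where it was high. Pdgfra, at 449 and 103, was close to that case, so the count of 3 is a description only. Lum, encoding the matrix proteoglycan lumican, gave 4269 and 3678 in triCH1flox2_1 and 816 and 800.1 in triCH1flox2_2, hypoxia before normoxia, against 312 and 285 in triCH1flox1 and 105 to 507 in the control lines. The part of cell make-up in the signals of Krt18, Lce1f and Crct1 was not tested.

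All 5 transcription factors of the list of epithelial repressors, which hold epithelial genes down in mesenchymal cells, were well measured. Zeb1 gave 2690.3 to 3733 in the triCH1 lines and 2970.1 to 4927 in the control lines. Snai2, Twist1, Snai1 and Zeb2 also overlapped between the triCH1flox2 arrays and the others. None of the 5 was called by limma in an oxygen contrast without blocks, and in the mean response, whose median over the 5 was 0.04, Twist1 and Snai1, 2 of 5, had an unadjusted p under 0.05, against 11.3% of all tested probe sets. Both were lower in hypoxia in 6 of 6 lines, as were 7.23% of tested probe sets, with a mean change of −0.32 ± 0.13 for Twist1. With lines as paired blocks Snai1 fell by 0.55 ± 0.14 on the log2 scale in the mean response (limma adjusted p 0.0455), and Pdgfra of the fibroblast list fell by 0.90 ± 0.22 (limma adjusted p 0.0343). That fit called 1.26% of all tested probe sets as lower. Without blocks limma's adjusted p was 0.0716 for Snai1 and 0.561 for Pdgfra. Pdgfra was lower in hypoxia in 5 of 6 lines, and its largest falls rest on faint hypoxia signals of 14.7 in flox1 and 53.6 in flox2_1. In triCH1flox1 it was 87.1 in hypoxia and 75.2 in normoxia.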

How the data were processed

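Signals were made by the authors and deposited as intensity on a linear scale, 1 value per probe set and array. Per the labels, they come from Affymetrix's Statistical algorithm, scaled to a target of 500, and the software version is not given in the sources used here. Probe sets were named from the array's annotation. Of 45101, 64 were manufacturer's controls and left out, and 34945 had exactly 1 symbol.

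A mean of 100 or more over the 12 arrays kept 18903 probe sets, which were fitted as log2(signal + 20) by limma 3.58.1 in R 4.3.3, with 1 mean per group, a variance trend and 8 residual degrees of freedom. Calls required a two-sided Benjamini-Hochberg adjusted p under 0.05 over all of them. With 3 arrays a group, the number of arrays limits the precision. Fold changes understate faint genes.

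Arrays of the same line were paired by their labels. After group means were removed, their correlations were 0.54, 0.58 and 0.35 in triCH1flox1, triCH1flox2_1 and triCH1flox2_2, and 0.47, 0.28 and −0.02 in flox1, flox2_1 and flox2_2. Lines as blocks left 4 residual degrees of freedom and called 189, 264 and 693 probe sets (triCH1 lines, control lines, mean response), against 120, 157 and 331 without.

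The 6 genes and all gene lists were chosen with earlier results of these data known. Named genes are all member probe sets, up to 4 genes of each list by mean signal, list genes called in a contrast, the 5 most similar probe sets of each tested member, Crebbp and Ep300. The code was tested on simulated data. Alternatives were other pseudocounts, filters, normalizations, no variance trend, line blocks, 1 value per gene, other probe sets, 1 oxygen level alone, and omission of each array or line. RefSeq sequences are from GRCm38.p6.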

Additional observations from a re-analysis of the deposited data

Results flagged for a closer look

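The signal of Epcam (1447899_x_at) was lower in hypoxia in all 3 triCH1 lines and nominally higher in all 3 control lines. The ratio of hypoxia to normoxia in the control lines was 1.36 in flox1 and only 1.01 in flox2_1 and 1.06 in flox2_2, and the response there was 0.16 ± 0.32 with a limma adjusted p of 1, so no rise was shown. The response in triCH1 lines minus that in control lines was −0.94 ± 0.46 (SE) on the scale of log2(signal + 20), with an unadjusted p of 0.0597 and an adjusted p of 1 in limma. With lines as a paired replicate block it was −0.94 ± 0.38, with an unadjusted p of 0.026 and an adjusted p of 1. Epcam too was chosen by line differences in these same arrays, so both unadjusted p-values are descriptions only. The second Epcam probe set (1416579_a_at), whose mean was 30.6, gave −0.34 ± 0.68 when low probe sets were tested as well. The probe set in question is also faint, with a mean of 142.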

How the results depend on the processing

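Krt19 was called in the control lines and in the mean response under every alternative run. In the triCH1 lines the number of members called was 1, and 0 with no variance trend and 0 to 1 over omissions. The replicate block of paired lines kept this call of Krt19 (limma adjusted p 0.00225) and added no member. Between-line spans (log2) depended on settings at faint signals. With a pseudocount of 100 they were 1.19 for Krt18, 2.90 for Lce1f and 2.77 for Crct1, and with a pseudocount of 1 that of Lce1f was 4.64. Krt18 spanned 1.43 with quantile normalization and 1.42 with centring. In hypoxia alone Lce1f spanned 3.64, and in normoxia alone Lce1f spanned 4.48 and Epcam 1.29. By its other probe set Lce1f spanned 1.54. Omitting a line gave 3.03 to 4.06 for Lce1f and 2.74 to 3.62 for Crct1.

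The level of triCH1 minus control lines was 0.60 for Krt18, −1.60 for Lce1f and −1.72 for Crct1 with a pseudocount of 100, and −2.51 for Lce1f with 1. In hypoxia alone it was −2.04 for Lce1f and −0.41 for Epcam, and in normoxia alone −2.40 and 0.53. By the other probe set it was −0.58 for Lce1f and −0.0828 for Epcam. Omitting a line gave 0.50 to 1.31 for Krt18, −0.20 to 0.21 for Epcam, −3.00 to −1.64 for Lce1f and −2.90 to −1.59 for Crct1.

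Responses near 0 changed sign: Krt18 in control lines was 0.0196 with quantile normalization, and the mean response of Lce1f was 0.0481 with a pseudocount of 1. Over omissions, Krt18 ran from −0.78 to 0.29 (triCH1), −0.18 to 0.18 (control), −0.75 to 0.32 (difference) and −0.41 to 0.13 (mean). Lce1f ran from −0.52 to 1.05, −0.49 to 0.19, −0.33 to 1.23 and −0.35 to 0.43 in the same order. Crct1 ran from −1.28 to 0.21 (triCH1) and −0.86 to 0.63 (difference). Over all tested probe sets, the mean response called 331, and 199 to 327 over omissions. Calls in triCH1 and control lines were 120 and 157, and 79 and 100 with 1 value per gene. They were 66 to 121 and 90 to 181 over omissions. The cause of these shifts was not tested. Epcam has no value with a filter at 200. Signals near or under 100 limit Krt8, Epcam and the low lines of Lce1f and Crct1.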
